A study of Homo sapiens with 4 samples.

Results

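The 33 genes described here encode nucleolar and ribosome assembly factors, taken from a named list by matching symbols in the deposited gene table of 30716 genes. RNA polymerase subunits are not among them. Each symbol matched 1 row, and all 33 genes passed the filter on low counts that left 18035 tested genes. RNA was sequenced from KYSE30 cells, an established line of human esophageal squamous cell carcinoma. The 2 shYY1 libraries came from cells that carry a short hairpin RNA directed at YY1, a zinc finger transcription factor. The 2 shNC libraries came from cells with a negative-control hairpin. Per the labels' protocols both groups grew in the same serum-containing medium, and puromycin was used to select stable lines. The hairpin sequences were not used here, and no label says whether replicates were separate cultures or clones. P-values therefore measure only the spread between these libraries, which may be technical, and effects of a hairpin other than the loss of YY1 cannot be told apart from that loss.

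Ribosomes are assembled in the nucleolus from precursor ribosomal RNA. Small nucleolar ribonucleoproteins (snoRNPs) guide its modification: box C/D particles carry the 2'-O-methyltransferase and box H/ACA particles the pseudouridine synthase. The small-subunit processome folds and cleaves the 18S part, a separate set of factors matures the large subunit, and abundant nucleolar phosphoproteins link these steps to transcription by RNA polymerase I. Many of these genes are known targets of MYC-type factors that bind the E-box.

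Total counts were 71255363 and 69736613 in the shYY1 libraries and 67390336 and 72499865 in the shNC libraries. YY1 had 2606 and 2344 counts in the shYY1 libraries, against 8147 and 7960 in the shNC libraries, and was 3.17-fold lower in shYY1 (edgeR adjusted p = 6.18e-05). The labels' extraction text speaks of retina, so marker lists were measured. Of 8 retina markers, 3 were in the table (the others are not analysed here), and their sum was 0.484 to 0.878 CPM in shYY1 and 0.927 to 1.22 CPM in shNC. Of 9 stromal, immune and endothelial markers, 7 were in the table, 2 of them at 0 counts in all libraries, with a sum of 9.44 to 11.9 CPM in shYY1 and 8.76 to 12.1 CPM in shNC. The 8 squamous epithelial markers summed to 2450 to 2570 CPM in shYY1 and 3870 to 4280 CPM in shNC, most of it EGFR. EGFR was at 1836 and 1746 CPM in shYY1 and 3657 and 3220 CPM in shNC (edgeR adjusted p = 0.0015). No other of these 8 markers had an edgeR adjusted p under 0.05. The squamous factor TP63 was at 53.5 and 51.2 CPM in shYY1 and 53.3 and 44.6 CPM in shNC. The basal keratin KRT5 had only 45 and 31 counts in shYY1 and 25 and 33 counts in shNC. Over the libraries KRT14 was at 3.74 to 4.67 CPM, KRT17 at 1.18 to 1.74 CPM and KRT6A at 31.5 to 39.0 CPM. SFN was at 448.3 and 434.8 CPM in shYY1 and 324.1 and 385.5 CPM in shNC. DSP was at 184.7 and 171.9 CPM in shYY1 and 213.9 and 178.9 CPM in shNC. The part of these markers in the results was not tested.

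Of the 33 genes, 5 rose in shYY1, 1 fell and 27 did not pass the test. NOLC1, a nucleolar phosphoprotein, had by far the largest difference of the 33, 2.50-fold higher in shYY1. The other genes that rose were RRP9, NIP7, UTP4 and DKC1, each 1.24-fold to 1.40-fold higher, and RRS1 was 1.38-fold lower. A gene was called at an adjusted p under 0.05 (edgeR quasi-likelihood test, Benjamini-Hochberg over every tested gene). In bulk RNA, a change in some cells and a smaller change in all cells cannot be told apart, nor can fewer cells of a type and less RNA per cell. Among all tested genes 5.05% were called higher and 4.90% lower (9.94% either way), against 15.2% and 1 gene of these 33. Calls were more frequent among abundant genes: all 33 genes averaged at least 17.3 CPM (counts scaled to a common library size), and among the 7743 tested genes at or above that level 10.0% were called higher and 7.75% lower (17.8% either way). The share of the 33 called either way was 18.2%, close to that 17.8%. Beyond this lower limit, these genes were not matched to the 33 in abundance. DESeq2 called 8 of the 33 higher, against 11.5% of the 12790 genes for which it gave an adjusted p.

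Small positive differences were common. The log2 fold change (shYY1 minus shNC) was positive in 28 of 33 genes, although scaling by library totals alone left 23 positive, and its median was 0.15. Over all tested genes the median was -0.01, with 48.8% positive. Over the tested genes at or above 17.3 CPM it was 0.06, with 58.9% positive. Both shYY1 libraries lay above both shNC libraries in 18 of the 33 genes and below them in 1, whereas 26.8% of all tested genes lay above and 28.1% below. Such shares were not computed for abundant genes alone. Summed over the 33 genes, the level was 10198 and 10061 CPM in shYY1 and 8908 and 9358 CPM in shNC, a ratio of 1.11, or 1.08 without NOLC1. For each of the 27 genes that did not pass the test, the 95% interval of the difference, not adjusted for multiple testing, lay within 0.58 on the log2 scale, or 1.5-fold, in both directions.

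**Figure D1:**
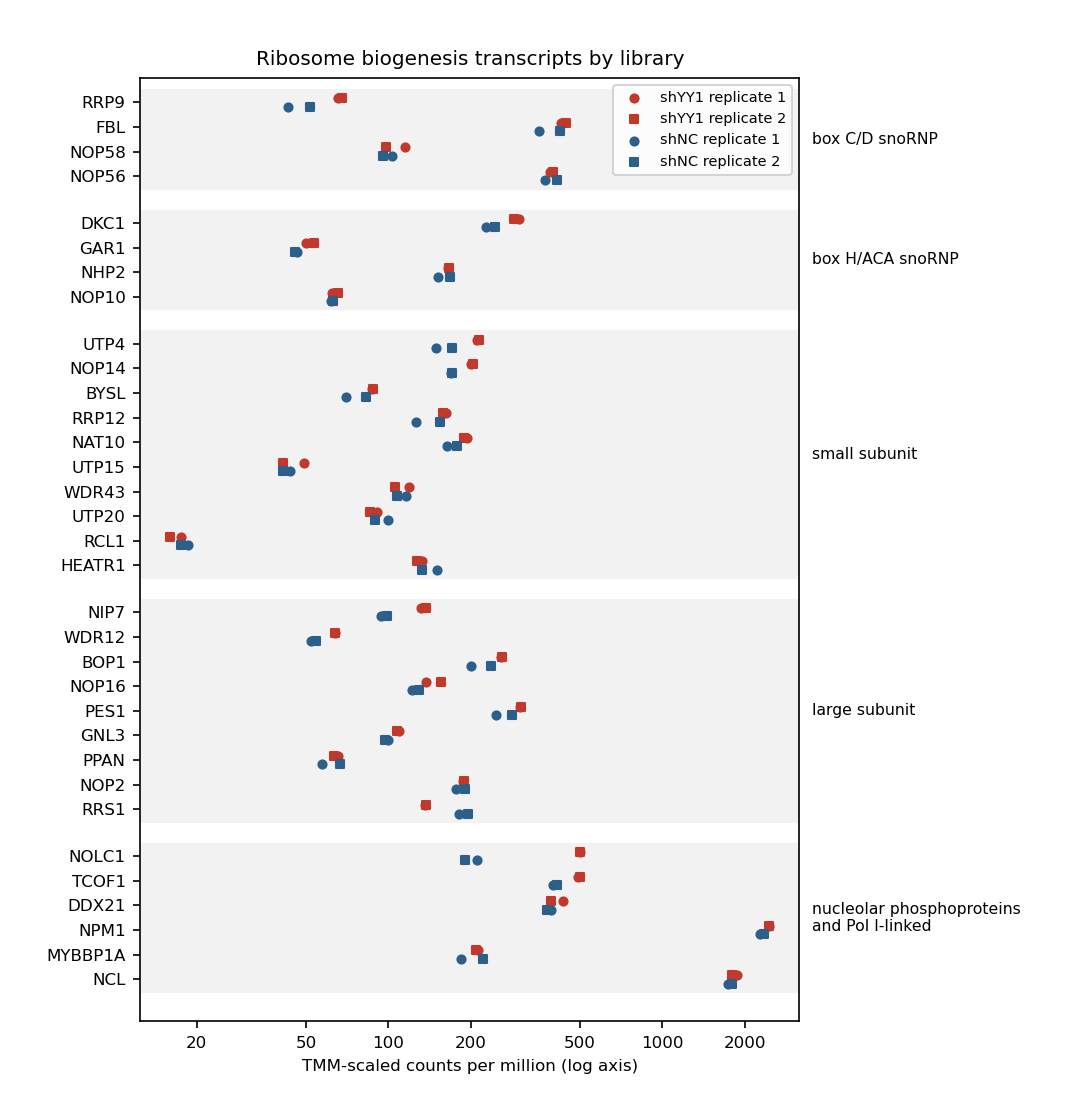
TMM-scaled CPM (log axis) of the 33 genes in each library, grouped by role, with shYY1 above shNC in each row and the marker shape giving the replicate. NOLC1 is at 499.6 and 501.4 in shYY1, far above its shNC values, while most other genes differ little between groups.

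**Figure D2:**
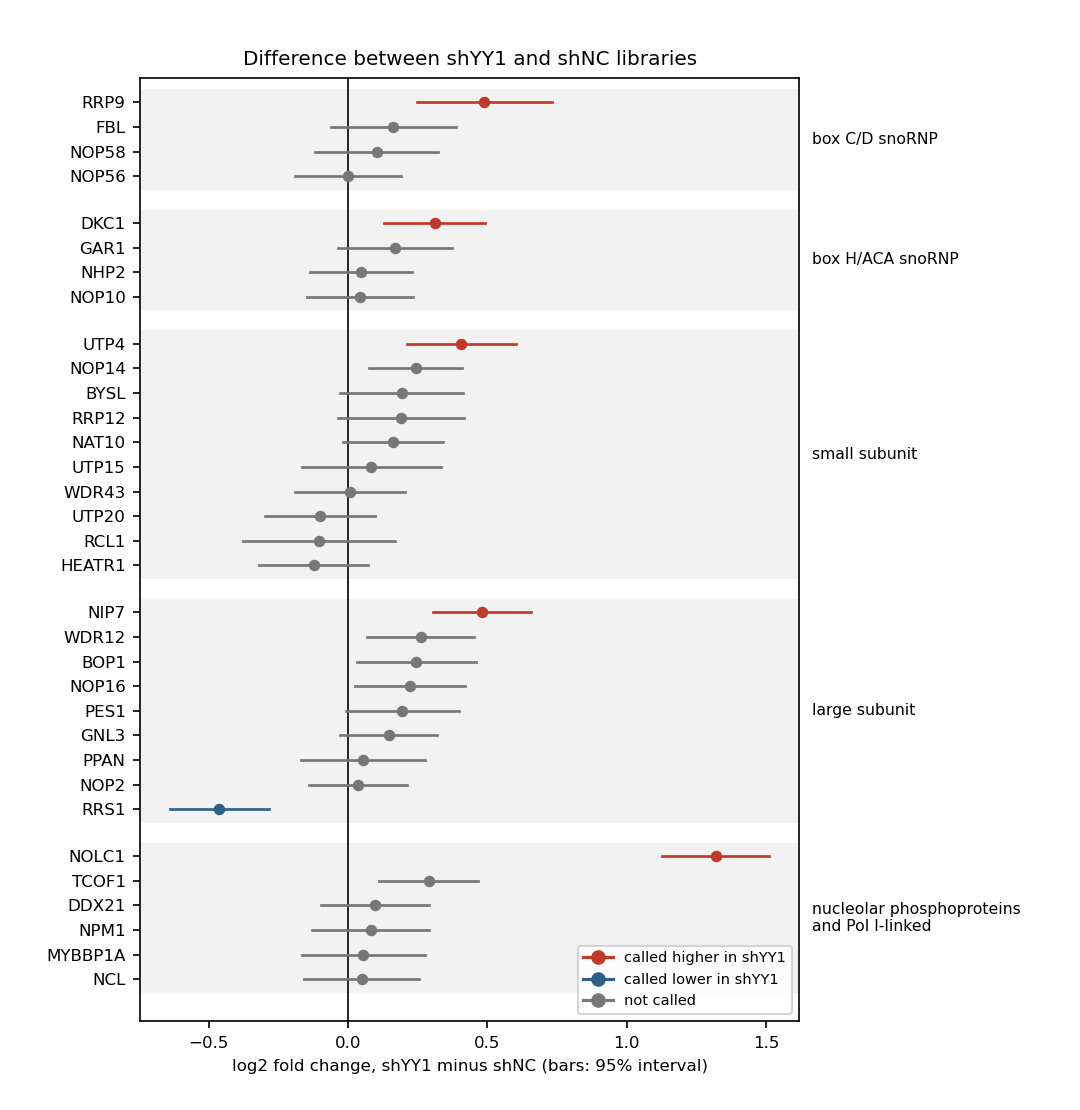
Log2 fold change (shYY1 minus shNC) of each gene with its 95% interval (edgeR), by role. NOLC1 stands at 1.32, RRS1 is the gene called lower, and the intervals of uncalled genes stay within 0.58 of 0.

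Which library is left out changed the calls. NOLC1 was called without each of the 4 libraries in turn, with log2 fold changes of 1.26 to 1.39. Without shYY1 replicate 1 only NOLC1 and NIP7 of the 33 were called, and without shYY1 replicate 2 only NOLC1. Without shNC replicate 1, 7 genes were called higher and 1 lower. Without shNC replicate 2, 15 were called higher and 2 lower, which compares the shYY1 libraries with shNC replicate 1 alone. Over all tested genes the share called higher in these 4 fits was 2.21%, 2.23%, 5.42% and 11.0% in the same order, and the share called lower was 3.73%, 3.09%, 4.07% and 6.32%. A group with 1 library left is assumed to vary like the other group. The median absolute log2 difference between replicates of the 33 genes was 0.04 in shYY1 and 0.11 in shNC.

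**Figure D3:**
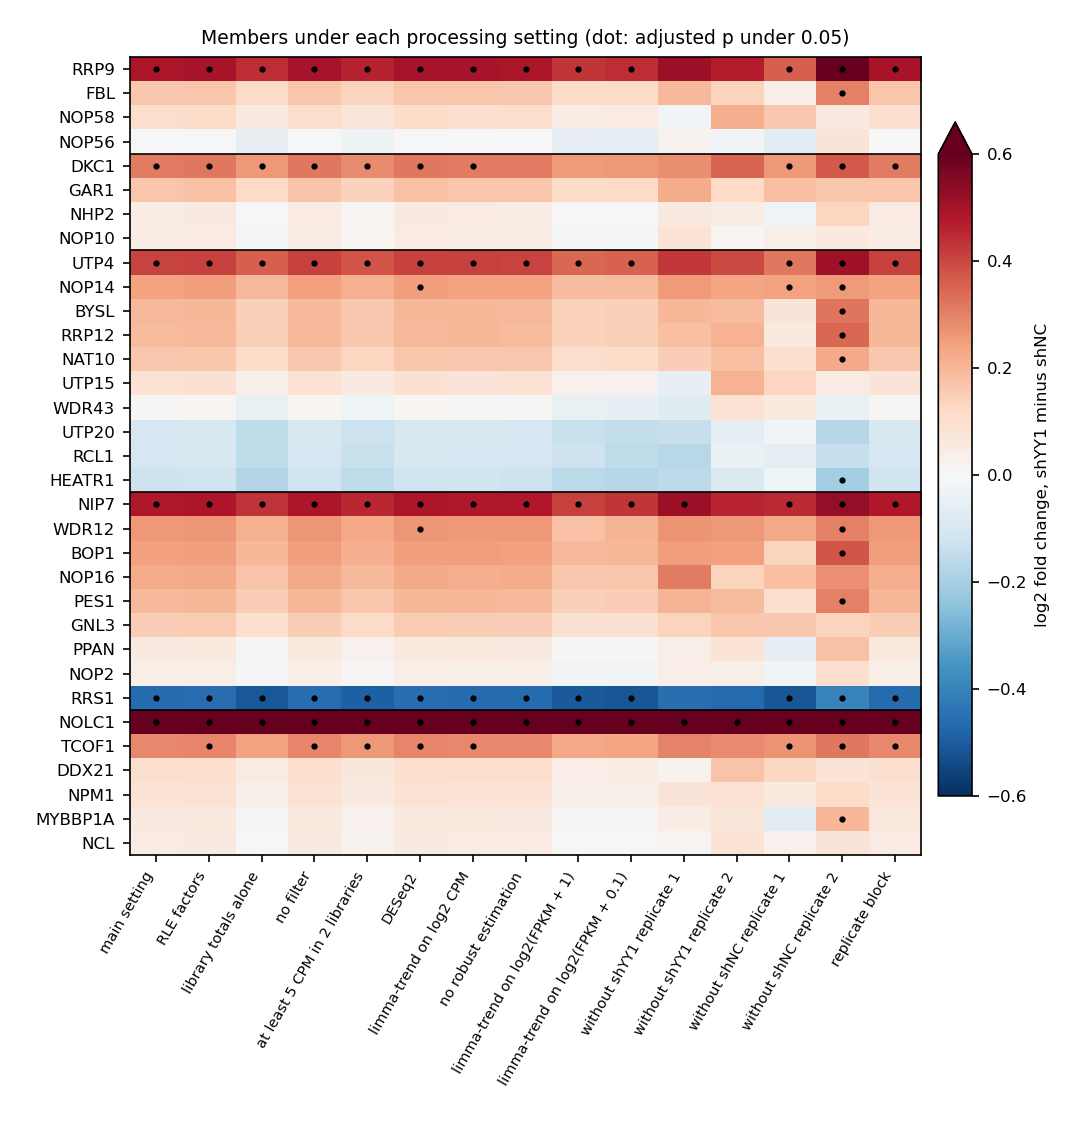
Log2 fold change of each gene (rows, by role) under each processing setting (columns), on a colour scale that saturates at 0.6, with a dot where the adjusted p is under 0.05. NOLC1 has a dot in every column, and the column without shNC replicate 2 has the most dots.

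Promoter windows were searched because many genes of this kind share the E-box. RefSeq windows (GRCh38.p14, 250 bases before to 50 after each gene start) were matched by symbol for 27 of the 33 genes. NOP58, RRP12, BOP1, RRS1, NOLC1 and TCOF1 had no entry. The E-box CACGTG, which reads alike on both strands, was present in 13 of the 27 windows (48.1%), against 9.95% of the windows of 11343 tested genes and 7.26% of all 35116 windows. In each of these 13 genes an E-box began within 50 bases of the start, against 3.99% of the tested genes. By role, the E-box was in 7 of 9 small-subunit windows, 3 of 7 snoRNP windows and 2 of 7 large-subunit windows. Among the nucleolar phosphoproteins and RNA polymerase I-linked factors, it was in 1 of 4 windows (MYBBP1A). It was in 2 of the 4 windows of called genes (RRP9 and UTP4) and in 11 of the 23 windows of genes not called. The YY1 core AANATGGC, searched on both strands, was in 3 of 27 windows (NIP7, GAR1 and UTP20), or 11.1%, against 9.76% of tested genes. TCTCGCGA, a motif found in many housekeeping promoters, was in 2 windows (NOP14 and NPM1), or 7.41%, against 2.27%. A match describes letters only and shows no binding. The RefSeq start lies more than 1000 bases downstream of the gene start in the deposited table, whose build is not stated, for 6 of the 27 genes. These are UTP4 (1358 bases), NIP7 (1776), GNL3 (4764), PES1 (15173), NCL (19157) and WDR12 (103125). The E-box was in 2 of these 6 windows (UTP4 and PES1) and in 11 of the other 21. Which start these cells use was not tested.

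**Figure D4:**
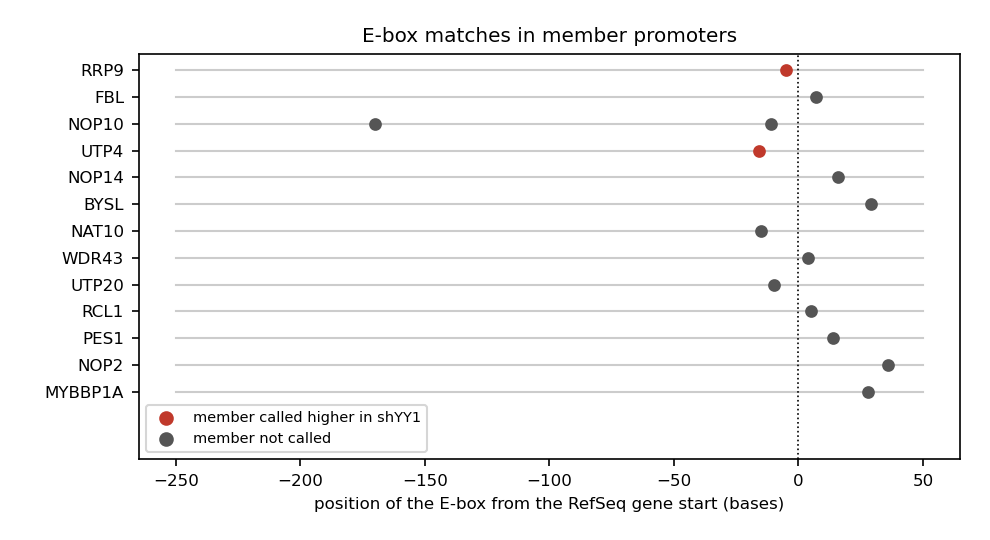
Position of the first base of each E-box from the RefSeq gene start for the 13 genes that hold one, with grey lines spanning the searched window. The matches lie from -16 to 36 bases of the start, apart from a further match of NOP10 at -170.

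The windows below, from RefSeq and written 5' to 3' on the strand of the gene, are shown because NIP7, UTP4 and RRP9 had the smallest adjusted p-values among genes with an entry, and NOP56 the largest. Capitals mark the E-box in UTP4 and RRP9 and the YY1 core, on the opposite strand, in NIP7. NOP56 holds none of the 3 motifs in this window. They lie at chr16:69339522-69339821 (NIP7, plus strand), chr16:69132399-69132698 (UTP4, plus strand), chr3:51941855-51942154 (RRP9, minus strand) and chr20:2652382-2652681 (NOP56, plus strand).
NIP7: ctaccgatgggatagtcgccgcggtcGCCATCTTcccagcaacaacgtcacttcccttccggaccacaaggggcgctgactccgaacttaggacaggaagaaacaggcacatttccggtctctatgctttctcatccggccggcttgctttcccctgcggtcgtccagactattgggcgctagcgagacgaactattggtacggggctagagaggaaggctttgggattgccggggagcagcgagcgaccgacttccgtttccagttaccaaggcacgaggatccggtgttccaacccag
UTP4: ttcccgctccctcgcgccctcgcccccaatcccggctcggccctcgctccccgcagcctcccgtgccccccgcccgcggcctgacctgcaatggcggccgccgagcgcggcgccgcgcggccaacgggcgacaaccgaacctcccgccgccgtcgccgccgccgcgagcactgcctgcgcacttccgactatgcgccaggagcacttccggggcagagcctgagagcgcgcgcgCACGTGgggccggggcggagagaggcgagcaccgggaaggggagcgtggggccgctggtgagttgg
RRP9: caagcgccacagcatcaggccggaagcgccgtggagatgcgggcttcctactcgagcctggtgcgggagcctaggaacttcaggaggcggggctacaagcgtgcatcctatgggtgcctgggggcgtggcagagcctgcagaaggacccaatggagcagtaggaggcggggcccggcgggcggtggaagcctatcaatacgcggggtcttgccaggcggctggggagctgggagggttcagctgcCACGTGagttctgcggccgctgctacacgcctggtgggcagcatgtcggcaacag
NOP56: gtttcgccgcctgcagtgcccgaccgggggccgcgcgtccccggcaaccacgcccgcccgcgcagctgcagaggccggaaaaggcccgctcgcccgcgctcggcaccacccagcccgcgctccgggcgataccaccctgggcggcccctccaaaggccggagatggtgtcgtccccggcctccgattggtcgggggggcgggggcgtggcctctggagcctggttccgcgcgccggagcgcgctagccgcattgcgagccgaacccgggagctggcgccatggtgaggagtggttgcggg

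Among the 4 box C/D genes, 1 rose. RRP9 (ENSG00000114767, chromosome 3, 51933429 to 51941904, minus strand; coordinates here and for the genes that follow are those of the deposited table, whose build is not stated) encodes the protein specific to the U3 particle, which is needed for cleavage on the way to 18S rRNA. It was at 65.5 and 67.7 CPM in shYY1, against 43.0 and 51.9 CPM in shNC, so that the groups did not overlap. Its log2 fold change was 0.49 ± 0.11 (SE), with an edgeR adjusted p of 0.0229, and it lost its call without shYY1 replicate 1 (adjusted p = 0.0560) and without shYY1 replicate 2 (0.0721). Its window, with an E-box that begins at -5 and spans the RefSeq start, is printed above. The methyltransferase FBL (fibrillarin), the most abundant of the 4 per length with a mean of 161 FPKM, did not pass: it was at 425.9 and 443.7 CPM in shYY1 and 354.4 and 422.7 CPM in shNC, without overlap. The core proteins NOP58 and NOP56 differed by 0.10 and -0.00052 on the log2 scale, and their groups overlapped. NOP58 was at 115.5 and 98.2 CPM in shYY1 and 103.2 and 95.7 CPM in shNC. NOP56 was at 387.6 and 398.5 CPM in shYY1 and 374.3 and 412.0 CPM in shNC. The FPKM ratio of FBL to RRP9 was 4.69 and 4.73 in shYY1 and 5.95 and 5.87 in shNC, whereas that of FBL to NOP58 overlapped between the groups.

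Of the 4 box H/ACA genes, DKC1, the pseudouridine synthase that is mutated in dyskeratosis congenita, rose. DKC1 (ENSG00000130826, chromosome X, 154762742 to 154777688, plus strand) was at 300.4 and 286.3 CPM in shYY1, against 228.0 and 245.0 CPM in shNC. The log2 fold change was 0.31 ± 0.080 (SE; edgeR adjusted p = 0.0438). This call was lost without either shYY1 replicate (adjusted p = 0.372 without replicate 1 and 0.254 without replicate 2), without robust estimation (0.0574) and on FPKM values (0.0504 and 0.0532). Its partners did not pass. GAR1 was at 49.9 and 53.6 CPM in shYY1 and 46.4 and 45.8 CPM in shNC. NHP2 was at 165.0 and 165.8 CPM in shYY1 and 152.0 and 168.3 CPM in shNC. These groups did not overlap for GAR1 and did for NHP2. NOP10, the most abundant of the 4 per length (a mean of 104 FPKM), was at 62.4 and 65.6 CPM in shYY1 and 61.6 and 62.6 CPM in shNC. The FPKM ratio of DKC1 to NHP2 was 0.62 and 0.59 in shYY1 and 0.51 and 0.50 in shNC, and that of DKC1 to NOP10 was 0.58 and 0.53 in shYY1 and 0.45 and 0.47 in shNC. That of DKC1 to GAR1 overlapped between the groups, at 2.81 and 2.50 in shYY1 and 2.30 and 2.50 in shNC.

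Of the 10 small-subunit genes, UTP4 rose and 9 did not pass. The median log2 fold change of the 10 was 0.12. UTP4 (cirhin; ENSG00000141076, chromosome 16, 69131291 to 69231130, plus strand) is a subunit of the UTP-A complex, which binds the precursor RNA early. It was at 210.6 and 214.8 CPM in shYY1, against 149.8 and 171.0 CPM in shNC, without overlap. The log2 fold change was 0.41 ± 0.087 (SE; edgeR adjusted p = 0.0210), and the call was lost without shYY1 replicate 1 (adjusted p = 0.103) and without shYY1 replicate 2 (0.145). The other UTP-A members in the list differed little and overlapped between the groups: log2 fold changes were 0.08 for UTP15, 0.01 for WDR43 and -0.12 for HEATR1. SNTB2 overlaps UTP4 on the same strand and CHTF8 on the opposite strand. SNTB2 fell (-0.53) and CHTF8 did not pass (-0.02), but how reads of overlapping genes were counted is not stated in the labels.

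NOP14, a processome subunit and the most abundant of the 10 per length (a mean of 43.8 FPKM), was at 199.8 and 203.0 CPM in shYY1 and 169.6 and 170.7 CPM in shNC. The groups did not overlap, but the edgeR adjusted p was 0.0719 (log2 fold change 0.24 ± 0.074, SE). NAT10, which acetylates cytidines of 18S rRNA, was at 193.1 and 189.1 CPM in shYY1 and 163.7 and 178.3 CPM in shNC and did not pass (adjusted p = 0.253). BYSL, needed for late small-subunit maturation, and RRP12, needed for export of subunits, each had a log2 fold change of 0.19. UTP20 (-0.10) and the cyclase-like protein RCL1 (-0.10) were, with HEATR1, the small-subunit genes with negative values. RCL1 was also the least abundant of the 33 genes per length, at a mean of 3.52 FPKM.

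The large-subunit genes held both directions. Of 9 genes, NIP7 rose, RRS1 fell and 7 did not pass. The median log2 fold change of the 9 was 0.20. NIP7 (ENSG00000132603, chromosome 16, 69337996 to 69343104, plus strand), an RNA-binding factor of pre-rRNA processing, was at 131.7 and 136.8 CPM in shYY1, against 93.6 and 98.6 CPM in shNC. Its log2 fold change was 0.48 ± 0.077 (SE; edgeR adjusted p = 0.00679), and it lost its call without shYY1 replicate 2 (0.0602). COG8, which overlaps NIP7 on the opposite strand, fell (-0.45). GENCODE 29 names 3 pseudogenes after NIP7, so the counts of NIP7 are uncertain. RRS1, which brings the 5S rRNA particle into the large subunit in yeast, was at 136.4 and 137.8 CPM in shYY1, against 181.6 and 195.7 CPM in shNC. Both shYY1 libraries lay below both shNC libraries. Its log2 fold change was -0.46 ± 0.078 (SE; edgeR adjusted p = 0.00815), and the call was lost without shYY1 replicate 1 (0.0842) and without shYY1 replicate 2 (0.0742). RRS1 was the most abundant of these 9 genes per length, at a mean of 79.7 FPKM. The annotated gene AC009879.2 overlaps RRS1 on the same strand, and how reads of overlapping genes were counted is not stated.

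BOP1, PES1 and WDR12 form the PeBoW complex, which processes the spacer next to 5.8S rRNA. They had log2 fold changes of 0.25, 0.20 and 0.26, and none passed (edgeR adjusted p = 0.141, 0.214 and 0.0878). WDR12 was at 63.6 and 64.0 CPM in shYY1 and 52.0 and 54.5 CPM in shNC. In all of BOP1, PES1 and WDR12 the groups did not overlap. The FPKM ratio of BOP1 to WDR12 was 9.59 and 9.58 in shYY1 and 9.10 and 10.2 in shNC. It rests on the gene lengths behind the FPKM values, which are not stated, so it does not give the balance of the complex. For WDR12 the RefSeq start lies 103125 bases downstream of the gene start in the deposited table. The methyltransferase NOP2 (0.04), the nucleolar protein NOP16 (0.22), nucleostemin (GNL3, 0.15) and PPAN (0.06) did not pass either. PPAN overlaps an annotated readthrough gene, PPAN-P2RY11, on the same strand, and its counts are uncertain because how such reads were counted is not stated.

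Among the 6 nucleolar phosphoproteins and RNA polymerase I-linked factors, NOLC1 rose and 5 did not pass. NOLC1 (Nopp140; ENSG00000166197, chromosome 10, 102152176 to 102163871, plus strand) binds snoRNPs and shuttles between nucleolus and Cajal bodies. It was at 499.6 and 501.4 CPM in shYY1, against 210.2 and 190.8 CPM in shNC. The log2 fold change was 1.32 ± 0.084 (SE; edgeR adjusted p = 0.000153), and no other gene of the 33 exceeded 0.49. TCOF1 (treacle), a related phosphoprotein that is mutated in Treacher Collins syndrome, was at 494.1 and 498.7 CPM in shYY1 and 400.2 and 412.2 CPM in shNC. The groups did not overlap, and the adjusted p was 0.0515 (log2 fold change 0.29 ± 0.078, SE), just outside the threshold. TCOF1 was called higher under 8 of the 14 alternatives: RLE factors (adjusted p = 0.0489), no filter (0.0498), at least 5 CPM (0.0305), DESeq2 (0.00132), limma-trend on CPM (0.0498), the replicate block (0.0387), and without shNC replicate 1 (0.0140) or replicate 2 (0.00400). Over all 14 its adjusted p ran from 0.00132 to 0.436. The FPKM ratio of NOLC1 to TCOF1 was 2.91 and 2.90 in shYY1 and 1.51 and 1.33 in shNC.

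NPM1 (nucleophosmin), the most abundant of the 33 genes per length with a mean of 522 FPKM, was at 2457 and 2442 CPM in shYY1 and 2278 and 2351 CPM in shNC. It did not pass (log2 fold change 0.08 ± 0.092, SE; edgeR adjusted p = 0.659). GENCODE 29 names 45 pseudogenes after NPM1, so its counts are uncertain. Of the 33 genes, 6 have pseudogenes named after them. The helicase DDX21 was at 435.4 and 392.7 CPM in shYY1 and 393.4 and 380.7 CPM in shNC. Nucleolin (NCL, 0.05) and MYBBP1A (0.06), which binds the RNA polymerase I machinery, had log2 fold changes close to 0, and the groups of DDX21, NCL and MYBBP1A overlapped. Levels per length spanned 3.52 to 522 FPKM over the 33 genes, with NPM1, NCL (222), FBL (161), NOP10 (104) and NHP2 (95.3) highest.

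The 33 genes often host small nucleolar RNA genes, whose products guide the same particles. In GENCODE 29, which lists all 33 genes on the same chromosome as the deposited table, 7 of the 33 (21.2%) contain a snoRNA gene on their strand, against 1.56% of 13410 tested protein-coding genes. GNL3 contains 6, NOP56 contains 5, NOP58 contains 4, NCL and WDR43 contain 3 each, and DKC1 and PPAN contain 2 each. DKC1 is the 1 called gene among these 7 hosts, a count too small to compare with the 17.8% called among tested genes at or above 17.3 CPM.

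The other genes of the pathway, 106 assembly factors listed by role, included 10 that rose (9.43%), 5 that fell and 91 that did not pass. Over all tested genes 5.05% were called higher and 4.90% lower, and over the genes at least as abundant as the least abundant of the 33, 10.0% and 7.75%, so the share that rose is near the background of abundant genes. Their log2 fold change was positive in 72 of 106 (67.9%), with a median of 0.13. Over the tested genes at or above 17.3 CPM, 58.9% were positive, with a median of 0.06. Both shYY1 libraries lay above both shNC libraries in 52 of the 106 and below them in 20, whereas 26.8% of all tested genes lay above and 28.1% below. Such shares were not computed for abundant genes alone. Of 45 other small-subunit factors 6 rose and 3 fell, and of 51 other large-subunit factors 4 rose and 2 fell. Of 10 snoRNP assembly factors none passed edgeR's test. In that test 4 of the 10 had an unadjusted p under 0.05, in both directions, against 4525 of all 18035 tested genes. DHX37, a helicase that removes the U3 snoRNA, had the smallest adjusted p and was at 117 and 116 CPM in shYY1, against 62.8 and 66.3 CPM in shNC. Its log2 fold change was 0.85 ± 0.080 (SE; edgeR adjusted p = 0.000781). SBDS, the Shwachman-Diamond syndrome protein that acts in the last step of large-subunit maturation, rose by 0.63. RSL24D1 (0.45) and DCAF13 (0.45) rose as well. GENCODE 29 names 9 pseudogenes after RSL24D1, 3 after DCAF13 and 1 after SBDS, so the counts of these genes are uncertain. Of the genes that fell, RRP15 (-0.69), WDR36 (-0.52), DDX52 (-0.37) and RSL1D1 (-0.30) had the smallest adjusted p-values. RRP15 was at 37.8 and 31.1 CPM in shYY1, against 52.2 and 59.3 CPM in shNC. These counts moved with the libraries and the tool. With all libraries, DESeq2 called 9 of the 106 lower, against 5 with edgeR, and 1241 of 12790 genes lower in all. Without shYY1 replicate 1, 3 rose and 1 fell, and without shYY1 replicate 2, 4 rose and 1 fell. Without shNC replicate 1, 16 rose, without shNC replicate 2, 43 rose, and DESeq2 called 25 higher. The share called higher over all tested genes moved too, to 2.21% and 2.23% without shYY1 replicate 1 and replicate 2, 5.42% and 11.0% without shNC replicate 1 and replicate 2, and 11.5% with DESeq2.

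**Figure D5:**
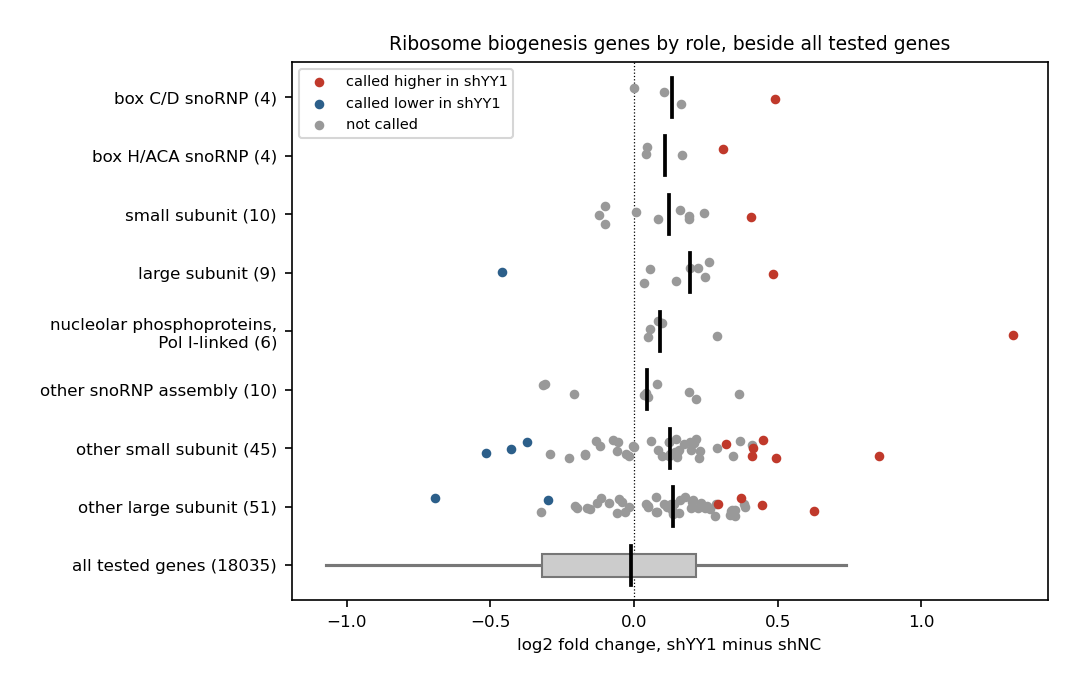
Log2 fold change of the 33 genes by role and of 106 other assembly factors (points; black bars are medians), beside all tested genes (box from the 25th to the 75th percentile, line from the 5th to the 95th). Set medians lie between 0.05 and 0.20, against -0.01 for all tested genes. The median over tested genes at or above 17.3 CPM, not drawn here, was 0.06.

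The 3' UTRs were compared for TTCAGAA and TCAGAAA, which an earlier search of these same libraries had linked to genes lower in shYY1, so the counts are a description and no independent evidence. Of the 6 ribosome biogenesis genes that fell, counting RRS1 and the 5 other assembly factors, 5 hold either word in the annotated 3' UTR: RRS1, RRP15, WDR36, RSL1D1 and LTV1 (LTV1 named after its value was seen), and DDX52 holds neither. Of the 14 searched genes that rose, 1 does (NOLC1), as do 24 of the 112 that did not pass. The 3' UTRs of the genes that fell had a median of 3778 bases, against 777 in those that rose, 522.5 in those that did not pass and 982 over the 9495 genes searched. The genes that fell were not uniform: LTV1 (285 bases) and RRS1 (504 bases) both hold a word and have short 3' UTRs, whereas the other 4 ran from 3619 to 6892 bases. Either word is in 28.5% of all searched genes and in 4 of the 31 searched genes of the list (12.9%). The part of these words in the differences was not tested.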

How the data were processed

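Libraries of KYSE30 cells (2 shYY1, 2 shNC), grouped by sample title, were compared. The table the authors deposited holds raw counts, used as they stand, and the authors' FPKM values, used for levels per length and as an alternative. Bowtie 0.12.2 and the builds mm8 and mm9 are named, per the submitters' processing notes; these are mouse builds and cannot describe this human table. For this table no source used here names the aligner, counter, strand setting or build, and reads of antisense and overlapping genes cannot be told apart. Columns were matched by name, and 0 belonged to other samples.

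edgeR 4.0.16 (R 4.3.3) was fitted over 18035 genes kept by filterByExpr (minimum count 10, minimum total 15) with TMM factors (0.980 to 1.04), robust quasi-likelihood estimation and a Benjamini-Hochberg threshold of 0.05. The common coefficient of variation (BCV) was 20.2%, with 2 residual degrees of freedom. CPM are TMM-scaled, SEs come from the fold change and F statistic, and 3 counts correspond to 0.0416 to 0.0439 CPM, a floor for counting error only. Replicates differed by more than sampling noise (chi-square per gene 18.9 in shYY1 and 41.6 in shNC). The edgeR step was tested on simulated data.

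Members, roles and lists were chosen with earlier results of these data known. All members are named, with values by library for called members, the 3 smallest adjusted p-values per role and the most abundant per role; BYSL, RCL1 and others are given by fold change, NOP56 in full because its promoter is shown. Of other assembly factors, the 4 smallest adjusted p-values in each direction are named. Alternatives were RLE factors, library totals, other filters, DESeq2 1.42.0, limma-trend (limma 3.58.1) on log2 CPM (prior count 2) and on log2(FPKM + 1) and log2(FPKM + 0.1), no robust estimation, each library left out and a replicate block. Words of 7 bases were counted in 3' UTRs of at least 50 bases (GENCODE 29 basic set, longest coding sequence) of genes at 5 CPM or more.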

Additional observations from a re-analysis of the deposited data

How the results depend on the processing

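Of the 33 genes, 5 were called higher in shYY1; alternatives gave 4 to 8 (8 with DESeq2), and 1 to 15 with a library left out. The 1 call lower held in 10 alternatives with all libraries, and with a library left out the count was 0 to 2. The median log2 fold change of 0.15 ranged from 0.09 to 0.18. The replicate block gave 6 genes higher (TCOF1 in addition) and 1 lower. With the block, 8.18% of all tested genes were called higher and 16.1% either way. The deviations of same-numbered libraries correlated at 0.0040 across genes, a value that cannot decide whether these libraries were paired. Of all tested genes 5.05% were called higher, against 10.5% with at least 5 CPM and 11.5% with DESeq2. The share was 4.54% with limma-trend on CPM, 4% without robust estimation, and 6.13% and 6.01% on FPKM (pseudocounts 1 and 0.1). Of 18035 tested genes, 883 were called lower, against 1019 with library totals alone, 761 without robust estimation and 1427 with the block. The count was 1291 of 10708 with at least 5 CPM and 1241 of 12790 with DESeq2. Of 106 other assembly factors, 10 were called higher and 5 lower. Higher calls numbered 20 with at least 5 CPM, 25 with DESeq2, 6 with limma-trend on CPM, 6 without robust estimation, 5 and 4 on FPKM with a pseudocount of 1 and 0.1, 24 with the block, and 3 to 43 with a library left out. Lower calls numbered 8 with library totals alone, 9 with at least 5 CPM, 9 with DESeq2, 3 without robust estimation, 8 with the block, and 1 to 7 with a library left out.

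Among the 33 genes, signs turned only in genes not called with all libraries. NOP56 (-0.00052) was at 0.0047 with RLE factors, 0.0030 without a filter, 0.0046 with DESeq2, 0.0010 with limma-trend on CPM and 0.0010 with the block. With library totals alone, values were -0.0015 for NHP2, -0.0064 for NOP10, -0.044 for WDR43, -0.014 for NOP2 and -0.00028 for NCL. On log2(FPKM + 1) and log2(FPKM + 0.1) they were -0.0040 and -0.0041 for NHP2, -0.0099 and -0.0099 for NOP10, -0.046 and -0.048 for WDR43, -0.016 and -0.017 for NOP2, and -0.0040 and -0.0040 for NCL. WDR43 was at -0.024 with at least 5 CPM. With a library left out, ranges were -0.067 to 0.076 for NOP56, -0.016 to 0.22 for NOP58, -0.048 to 0.21 for UTP15, -0.075 to 0.088 for WDR43, -0.024 to 0.13 for NHP2, -0.016 to 0.095 for NOP2, -0.051 to 0.18 for PPAN and -0.069 to 0.20 for MYBBP1A. The cause was not tested.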
